A study of Mus musculus with 8 samples.

Results

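Macrophage genes were followed in cultures of primary fibroblasts, which were taken from mouse embryos and used without immortalisation. The set holds 39 genes that are used as marks of macrophages or of leukocytes in general. It was chosen by gene name, with earlier results of these data known. The counts below therefore describe the set and are no independent test of it. A gene was represented by its probe set (the group of short probes that report 1 transcript) annotated to that gene alone, and by the one with the highest mean over all arrays where there were several. A probe set was found for 38 of the 39, out of 13307 genes with one in the table. Marco, a scavenger receptor, has none, so no signal is given for it here. Emr4 is annotated under its current symbol, Adgre4.

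Of the cultures, 4 were lines from embryos that lack both cryptochrome genes (genotype Cry1-/-, Cry2-/-, called Cry DKO), and 4 were control lines from wild-type (WT) embryos. Each line is independent and was read on 1 array. Both genotypes share a background close to C57BL/6J, reached by backcrossing BL6/129 mice, and all cells were untreated, dividing without synchronisation in DMEM/F10 medium with 10% serum at 3% oxygen. The deletions are in the whole embryo, so any macrophages in these cultures lack cryptochromes too in the Cry DKO lines. Values are log2 signals, and array medians lay between 6.78 and 6.79. The label names the cells as fibroblasts, and no sorting step is given in the sources used here. The probe sets of Cry1 and Cry2 differed by -0.50 and -0.34 without passing (limma adjusted p = 0.168 and 0.132). The sources used here do not place their probes relative to the deleted parts, so they do not check the genotype labels.

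As background, macrophages of the embryo arise from the yolk sac and fetal liver and settle in every tissue, so cells taken from embryos can include them. They depend on CSF1R, a receptor kinase for the growth factors CSF1 and IL34, and their gene programme is driven by the ETS-family factor PU.1, the product of Spi1, which binds purine-rich sites with the core GGAA. Fibroblasts themselves secrete CSF1. Cryptochromes repress CLOCK and ARNTL, a pair of activators that bind E-boxes.

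Promoters are shown first because PU.1 is known to act on many macrophage genes. Windows from 250 bases before to 50 after the gene start were taken from RefSeq (build GRCm38.p6), and 36 windows of 29 members were found. The letters GAGGAA, a purine-rich core of the kind PU.1 binds, were found on either strand in 20 of these 36 windows, in 19 of the 29 members, against 28.3% of all 32851 windows. The longer form GAGGAAGT, which contains the shorter letters, was in 3 of the 36 (Cd53, Emr4 and Pld4) and in 3.2% of all windows. The E-box letters CACGTG were in 0 of the 36 and in 7.15% of all windows. Within the 100 bases before the start, 8 members held GAGGAA, in 9 of 36 windows against 9.82% of all. Those 100 bases are printed for 5 members that rose in Cry DKO lines and for Aif1, which did not pass, with each match in capitals. A match on the opposite strand reads TTCCTC. A match is a description of letters only.
Cd53 (chr3:106790150-106790249, reverse strand): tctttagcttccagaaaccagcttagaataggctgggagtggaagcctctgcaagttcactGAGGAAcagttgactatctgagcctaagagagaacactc
Fyb (chr15:6579747-6579846, forward strand): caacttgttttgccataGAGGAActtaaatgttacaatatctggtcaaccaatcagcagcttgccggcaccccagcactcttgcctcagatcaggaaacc
Itgam (chr7:128062540-128062639, forward strand): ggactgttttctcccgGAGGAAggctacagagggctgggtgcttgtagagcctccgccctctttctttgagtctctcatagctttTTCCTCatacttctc
Laptm5 (chr4:130913216-130913315, forward strand): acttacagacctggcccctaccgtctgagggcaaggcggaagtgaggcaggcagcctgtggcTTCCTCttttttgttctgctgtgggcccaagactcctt
Trem2 (chr17:48346301-48346400, forward strand): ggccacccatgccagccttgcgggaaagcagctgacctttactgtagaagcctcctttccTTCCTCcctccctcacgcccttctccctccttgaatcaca
Aif1 (chr17:35176053-35176152, reverse strand): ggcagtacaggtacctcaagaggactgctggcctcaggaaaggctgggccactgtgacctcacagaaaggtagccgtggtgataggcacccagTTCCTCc
The match nearest to the start was that of Aif1, 1 base away, while those of Laptm5, Cd53 and Trem2 lay 32 to 34 bases before it, on the opposite strand in Laptm5 and Trem2. Itgam has 2 matches, 78 bases before the start and, on the opposite strand, 9 bases before it. The 8 members with a match in these 100 bases are the 5 printed that rose and 3 that did not pass, Aif1, Clec7a and Mrc1. Clec7a and Mrc1 are not printed. For comparison, 21 of all 35 members tested rose, a similar share.

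Macrophage genes were higher in Cry DKO lines, by a similar amount in most members. The median difference over the 38 genes (Cry DKO minus WT) was 0.76 on the log2 scale, against 0.00 over all 13307 genes, and 28 of the 38 lay between 0.5 and 1. Of the 35 members above the floor (a mean signal of 6.06, the 40th percentile of all probe sets), 21 rose, none fell, and 34 had a difference above 0, against 48.5% of all genes. The background was 4.95% of 9511 genes called higher and 4.23% called lower, by limma with Benjamini-Hochberg adjustment over all of these genes and a threshold of 0.05. When all 13307 genes were tested without a floor, 21 of 38 members rose and 0 fell, against 3.32% and 2.65% of all genes. An unadjusted p under 0.05 with a higher value was reached by 29 of the 35 members and by 12.3% of all genes, and with a lower value by none of the 35. In 17 of the 38 every Cry DKO line lay above every WT line, which held for 6.86% of all genes. Trem2 and Was passed the floor through their Cry DKO lines alone, since all of their WT lines lay below it, and 19 of the other 33 members above the floor rose. The 3 members below the floor, Cd48, Cd180 and Emr4, are given by their values. In RNA of a whole culture, more cells of a type and more RNA per cell cannot be told apart.

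Lines of 1 genotype also differed among themselves. The mean signal over the 38 genes was 8.52, 8.13, 7.57 and 7.87 in Cry DKO lines 1 to 4, against 7.54, 7.06, 7.30 and 7.47 in WT lines 1 to 4. These averaged 8.02 ± 0.40 in Cry DKO and 7.34 ± 0.21 in WT lines (SD, n = 4 each), so the gap between the lowest Cry DKO line, 3, and the highest WT line, 1, was narrow. Cry DKO line 3 lay above WT line 1 in 20 of the 38 genes and above WT line 2 in 32, whereas Cry DKO line 1 lay above WT line 1 in 38. Cry DKO line 1 was the highest of all 8 lines in 32 of the 38 genes, and WT line 2 the lowest in 26. Cry DKO line 3 was the lowest of its genotype in 34.

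**Figure D1:**
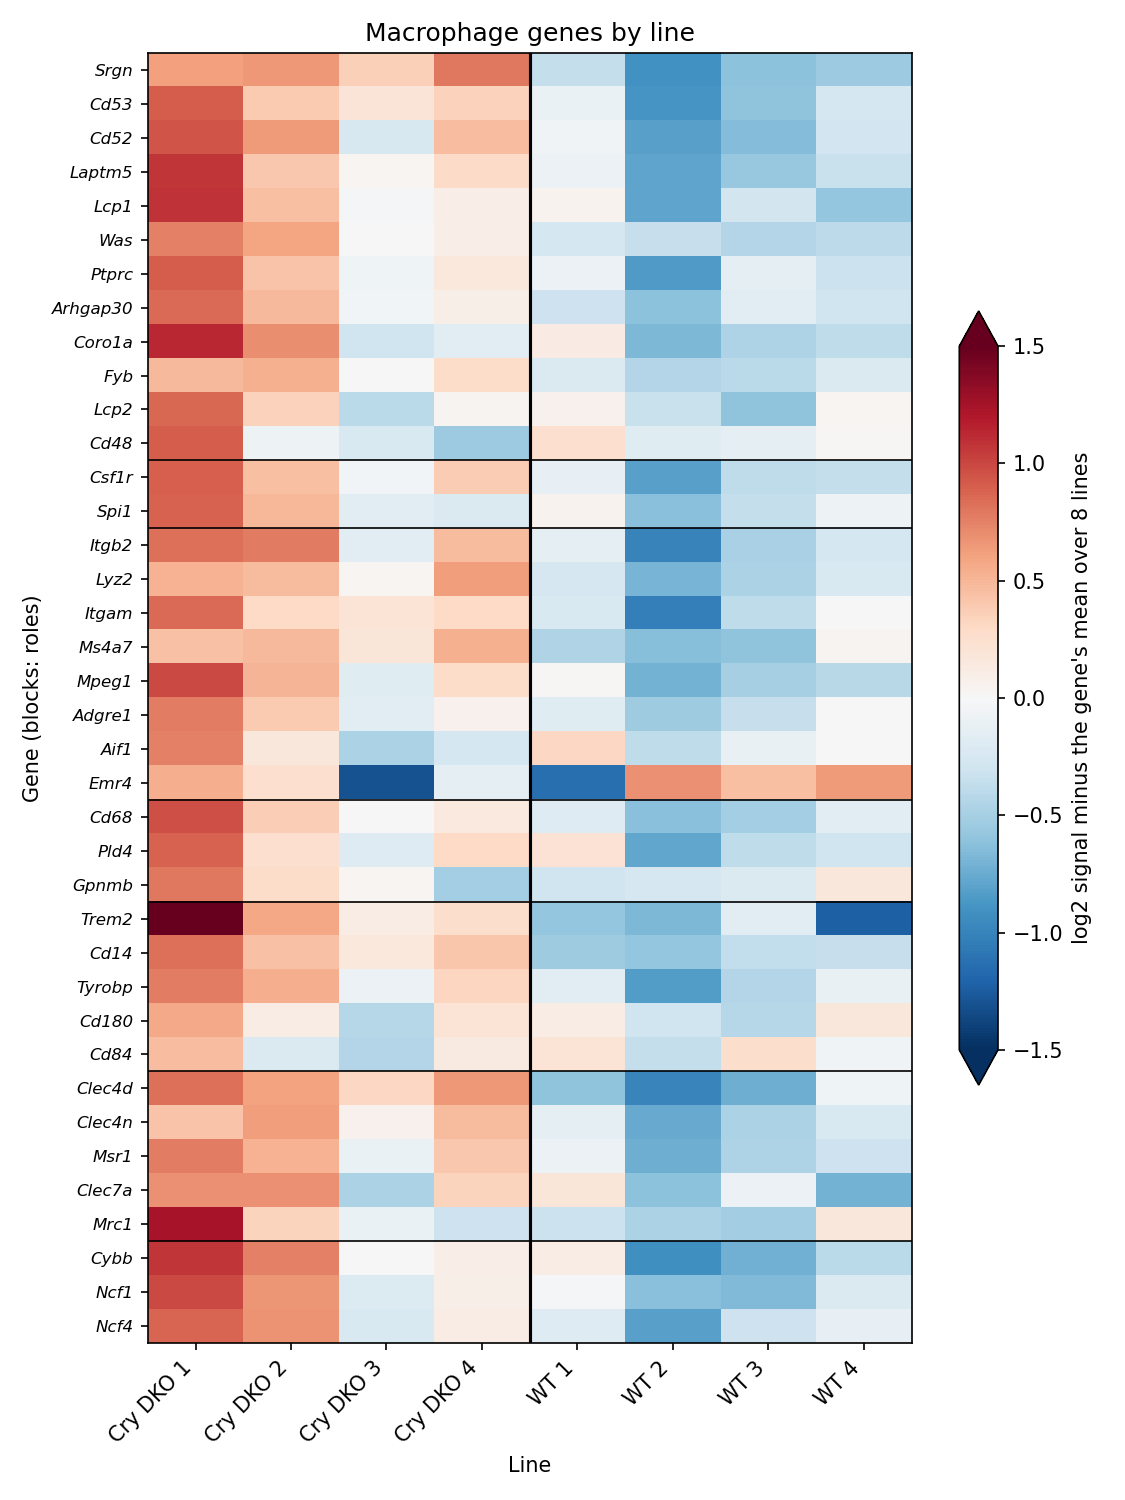
Log2 signal of each macrophage gene (rows, in blocks by role) minus that gene's mean over the 8 lines, for Cry DKO lines 1 to 4 (left of the thick line) and WT lines 1 to 4. Cry DKO line 1 is the highest line in 32 of 38 genes and WT line 2 the lowest in 26; colours are clipped at 1.5, and Emr4 is a dim probe set with a mean of 2.45.

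The number of members called therefore depended on single lines. Against 21 of 35 with all lines, it was 9 without WT line 2, 10 without WT line 3, 10 without Cry DKO line 2 and 13 without Cry DKO line 1. It was 26 without Cry DKO line 3, the line closest to WT, and 15 to 17 without each of the other three. Every fit without a line also has fewer samples, and the count over all genes moved as well, between 382 and 686 against 873. Called in all 8 such fits were 9 members: Cd53, Srgn, Fyb, Csf1r, Lyz2, Ms4a7, Cd14, Clec4d and Clec4n. Of the other 12 calls, that of Itgam ended in 7 fits, those of Cd52, Was, Arhgap30 and Mpeg1 in 6, Itgb2 and Cybb in 5, Cd68, Tyrobp and Trem2 in 4, Msr1 in 3 and Laptm5 in 2.

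The lineage factor and the growth factor receptor come first. Csf1r, the receptor that macrophages need to survive, had log2 signals of 11.48, 11.03, 10.54 and 10.96 in Cry DKO lines 1 to 4, against 10.46, 9.77, 10.20 and 10.22 in WT lines 1 to 4. The groups did not overlap, and Csf1r rose by 0.84 (SE 0.18, limma adjusted p = 0.0188). Its other probe sets gave 0.83 and 0.93. Spi1, which encodes PU.1, had 7.76, 7.38, 6.72 and 6.67 in Cry DKO lines 1 to 4, against 6.94, 6.25, 6.52 and 6.80 in WT lines 1 to 4. Lines 3 and 4 of the Cry DKO group lay within the WT range, and the difference of 0.50 (SE 0.24, limma adjusted p = 0.217) did not pass. Spi1 lies on chromosome 2 with 25 protein-coding genes between it and Cry2, 1 of the deleted genes (gene order of GRCm38.p6). Whether DNA around either deletion differs between the lines was not tested, and the distance of members from Cry1, the other deleted gene, is not given here.

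Macrophage identity genes were next, with 5 of 7 members above the floor called higher. Lyz2, lysozyme M, which degrades bacterial cell walls, had 12.27, 12.23, 11.78 and 12.38 in Cry DKO lines 1 to 4, against 11.49, 11.06, 11.27 and 11.52 in WT lines 1 to 4. Every Cry DKO line was above every WT line, and Lyz2 rose by 0.83 (SE 0.13, limma adjusted p = 0.00423). Itgam and Itgb2 encode the chains of the complement receptor CR3. Itgam had 7.51, 6.95, 6.87 and 6.96 in Cry DKO lines 1 to 4, against 6.42, 5.63, 6.28 and 6.66 in WT lines 1 to 4, with no overlap between the groups. It rose by 0.82 (SE 0.22, limma adjusted p = 0.0382), the call that ended in most of the fits without 1 line. Itgb2, the chain shared by leukocyte integrins, had 8.95, 8.90, 7.95 and 8.60 in Cry DKO lines 1 to 4, against 7.98, 7.12, 7.65 and 7.86 in WT lines 1 to 4. Cry DKO line 3 lay just below WT line 1, so the groups overlapped, and Itgb2 rose by 0.95 (SE 0.23, limma adjusted p = 0.0273). Ms4a7, a membrane protein of macrophages, rose by 0.82 (SE 0.14, limma adjusted p = 0.00638), and Mpeg1, the pore-forming perforin-2, rose by 0.80 (SE 0.22, limma adjusted p = 0.0423).

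Adgre1 encodes the classic surface antigen by which mouse macrophages are recognised. Its signals were 8.56, 8.17, 7.63 and 7.85 in Cry DKO lines 1 to 4, against 7.60, 7.25, 7.44 and 7.78 in WT lines 1 to 4. Its WT line 4 reached above Cry DKO line 3, and the difference of 0.53 (SE 0.18, limma adjusted p = 0.0936) did not pass. Aif1, the actin-bundling protein IBA1, had 7.04, 6.46, 5.81 and 6.03 in Cry DKO lines 1 to 4, against 6.60, 5.90, 6.18 and 6.30 in WT lines 1 to 4. The groups overlapped fully, with Cry DKO lines 2, 3 and 4 lower than WT line 1, and the difference of 0.09 (SE 0.25, limma adjusted p = 0.857) did not pass. Emr4, an adhesion receptor of the Adgre1 family, was dim, with 2.99, 2.70, 1.14 and 2.31 in Cry DKO lines 1 to 4, against 1.31, 3.13, 2.90 and 3.09 in WT lines 1 to 4. These values scatter over a wide range in both genotypes, and the difference of -0.32 (SE 0.63) did not pass when all genes were tested without a floor (adjusted p = 0.824 by limma).

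**Figure D2:**
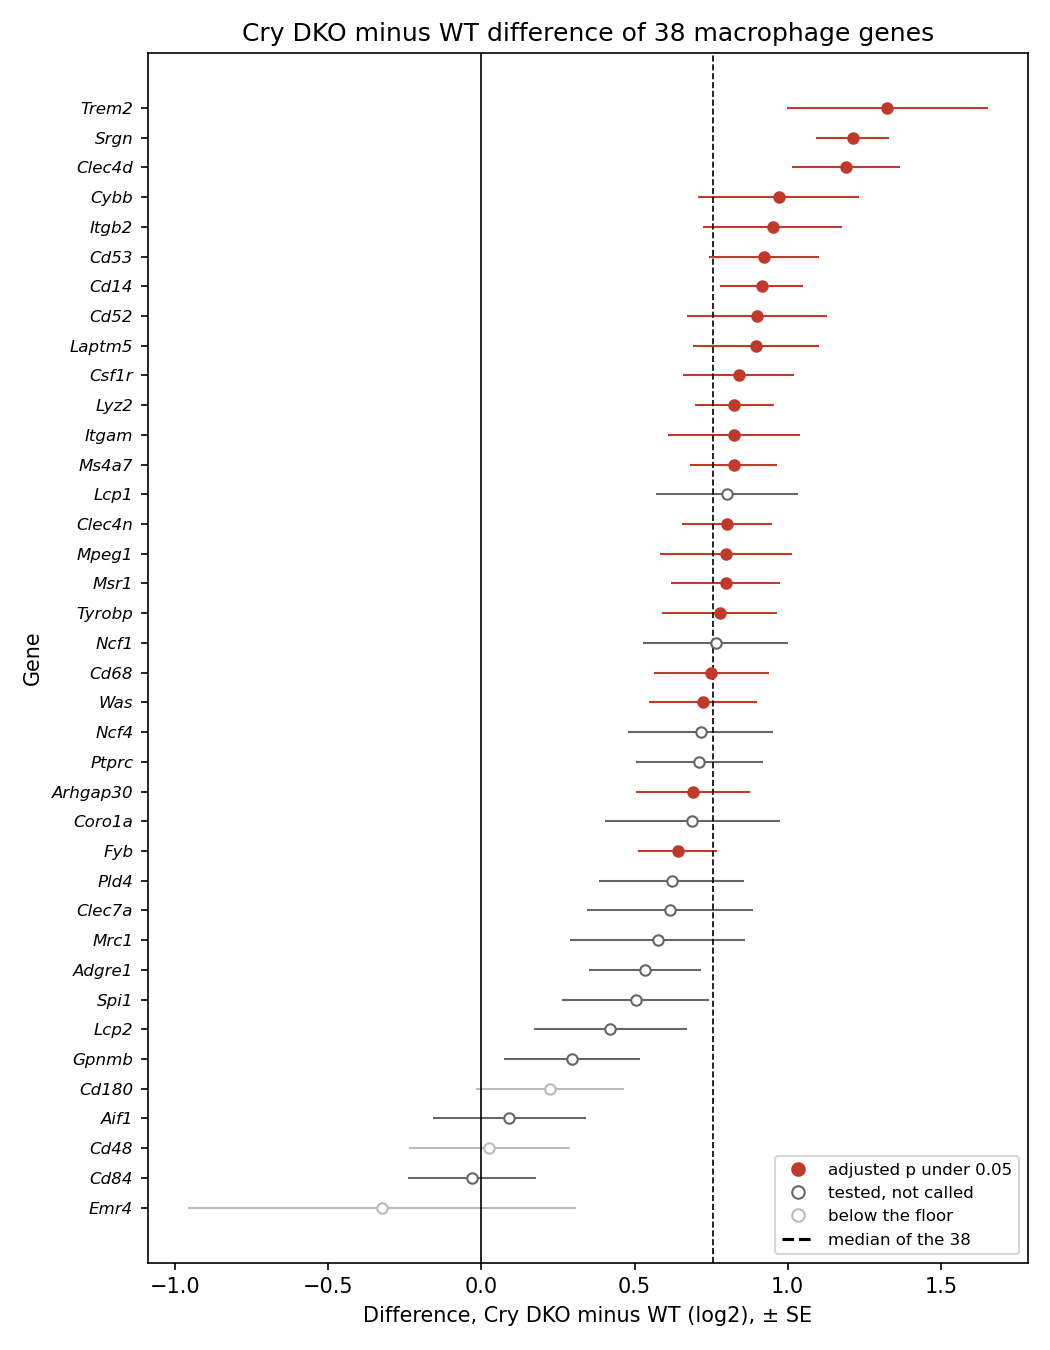
Difference between Cry DKO and WT lines (x axis, log2, Cry DKO minus WT) for each of the 38 macrophage genes, with bars of ± SE and n = 4 lines per genotype. Filled red points passed an adjusted p of 0.05 by limma, and the dashed line is the median, 0.76; Aif1, Cd84, Cd48 and Emr4 lie at or below 0.09.

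Among innate receptors and their signal adaptor, 3 of 4 members above the floor rose. Trem2, a lipid-sensing receptor, and Tyrobp, the ITAM adaptor DAP12 through which it signals, are partners. Trem2 had 7.78, 6.66, 6.20 and 6.36 in Cry DKO lines 1 to 4, against 5.51, 5.42, 5.92 and 4.86 in WT lines 1 to 4, the widest spread of any called member. All Cry DKO lines were above all WT lines, which lay below the floor, and Trem2 rose by 1.32 (SE 0.33, limma adjusted p = 0.0307). Without Cry DKO line 1 the difference was 0.98. Tyrobp had 10.14, 9.91, 9.28 and 9.69 in Cry DKO lines 1 to 4, against 9.20, 8.53, 8.93 and 9.25 in WT lines 1 to 4, also without overlap, and rose by 0.78 (SE 0.19, limma adjusted p = 0.0281). Cd14, the co-receptor for lipopolysaccharide, had 8.06, 7.67, 7.39 and 7.64 in Cry DKO lines 1 to 4, against 6.70, 6.65, 6.87 and 6.89 in WT lines 1 to 4. It rose by 0.92 (SE 0.14, limma adjusted p = 0.00302) with no overlap. Cd84, a SLAM-family adhesion receptor, had 6.74, 6.06, 5.85 and 6.41 in Cry DKO lines 1 to 4, against 6.49, 5.93, 6.55 and 6.22 in WT lines 1 to 4. The groups overlapped throughout, and the difference of -0.03 (SE 0.21, limma adjusted p = 0.951) did not pass. Cd180, a Toll-like receptor homologue, lay below the floor with 5.88, 5.42, 4.88 and 5.52 in Cry DKO lines 1 to 4, against 5.42, 5.01, 4.88 and 5.49 in WT lines 1 to 4. Its groups overlapped, and the difference of 0.22 (SE 0.24) did not pass without a floor (adjusted p = 0.655 by limma).

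Of the 5 lectins and scavenger receptors with a probe set, 3 rose. Clec4d, a lectin that binds mycobacterial glycolipid, had 8.51, 8.29, 7.999 and 8.34 in Cry DKO lines 1 to 4, against 7.09, 6.70, 6.96 and 7.63 in WT lines 1 to 4. Every Cry DKO line was above every WT line, and Clec4d rose by 1.19 (SE 0.18, limma adjusted p = 0.00312). Clec4n, which encodes dectin-2, a receptor for fungal mannan, is its direct neighbour on chromosome 6 and rose by 0.80 (SE 0.15, limma adjusted p = 0.00931). The scavenger receptor Msr1 rose by 0.80 (SE 0.18, limma adjusted p = 0.0207), with 0.87 and 0.99 in its other probe sets above the floor. The call of Msr1 ended when all its probe sets were averaged, at 0.87 (limma adjusted p = 0.08). Clec7a, which encodes the fungal glucan receptor dectin-1, and Mrc1, the mannose receptor, differed by 0.62 and 0.58 without passing (limma adjusted p = 0.187 and 0.236). Mrc1 stood high in Cry DKO line 1 alone, at 8.88, against 7.33 to 7.97 in the other Cry DKO lines and 7.11 to 7.81 in WT lines.

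The phagocyte oxidase makes superoxide in the phagosome. Cybb, its catalytic membrane subunit, had 8.34, 8.03, 7.28 and 7.38 in Cry DKO lines 1 to 4, against 7.38, 6.35, 6.55 and 6.87 in WT lines 1 to 4. Cry DKO lines 3 and 4 were just below WT line 1, and Cybb rose by 0.97 (SE 0.26, limma adjusted p = 0.0423). The cytosolic subunits Ncf1 and Ncf4 differed by 0.76 and 0.72 without passing (limma adjusted p = 0.0681 and 0.084). The other probe sets of Ncf1 gave 1.13 and 0.84. These 3 subunits thus had differences of similar size, and 1 passed. Cyba, an oxidase subunit outside the set, had means of 11.2 in Cry DKO and 11.1 in WT lines. Its difference of 0.07 (limma adjusted p = 0.557) did not pass. Among the endolysosomal membrane proteins Cd68, a heavily glycosylated protein of late endosomes, had 9.30, 8.71, 8.34 and 8.48 in Cry DKO lines 1 to 4, against 8.14, 7.70, 7.82 and 8.17 in WT lines 1 to 4. The groups did not overlap, and Cd68 rose by 0.75 (SE 0.19, limma adjusted p = 0.0314). Pld4, an endolysosomal nuclease, had a difference of 0.62 (limma adjusted p = 0.13). Gpnmb, a glycoprotein of lysosomes and melanosomes, had 8.68, 8.17, 7.93 and 7.39 in Cry DKO lines 1 to 4, against 7.59, 7.64, 7.68 and 8.06 in WT lines 1 to 4. Cry DKO line 4 was the lowest of all lines and line 1 the highest, and the difference of 0.30 (SE 0.22, limma adjusted p = 0.441) did not pass.

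Of the 11 leukocyte surface, adaptor and cytoskeleton genes above the floor, 7 rose. Ptprc, the pan-leukocyte phosphatase CD45, had 9.45, 8.97, 8.48 and 8.70 in Cry DKO lines 1 to 4, against 8.45, 7.69, 8.40 and 8.22 in WT lines 1 to 4. The groups did not overlap, but the adjusted p lay just outside the threshold. Ptprc differed by 0.71 (SE 0.21, limma adjusted p = 0.0539), and it was called when Cry DKO line 3 was left out. Srgn, the proteoglycan core of secretory granules, had 9.54, 9.57, 9.29 and 9.72 in Cry DKO lines 1 to 4, against 8.57, 8.02, 8.31 and 8.38 in WT lines 1 to 4. It stood clearly apart in the genotypes and rose by 1.21 (SE 0.12, limma adjusted p = 0.000382). Cd53, a tetraspanin, had 9.42, 8.91, 8.71 and 8.86 in Cry DKO lines 1 to 4, against 8.42, 7.63, 7.91 and 8.25 in WT lines 1 to 4 and rose by 0.92 (SE 0.18, limma adjusted p = 0.0126) without overlap. Cd52, a small glycopeptide of lymphoid and myeloid surfaces, had 10.04, 9.74, 8.86 and 9.56 in Cry DKO lines 1 to 4, against 9.05, 8.29, 8.46 and 8.81 in WT lines 1 to 4. Cry DKO line 3 lay below WT line 1, and Cd52 rose by 0.90 (SE 0.23, limma adjusted p = 0.0341).

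Laptm5, a lysosomal membrane protein of haematopoietic cells, rose by 0.90 (SE 0.20, limma adjusted p = 0.0231), with 0.55 and 0.46 in its other probe sets above the floor. Its call ended when all its probe sets were averaged, at 0.37 (limma adjusted p = 0.294). That average includes a dim probe set below the floor, with a mean of 4.62 and a difference of -0.41. The adaptor Fyb rose by 0.64 (SE 0.13, limma adjusted p = 0.0143), Was, the actin regulator mutated in Wiskott-Aldrich syndrome in humans, by 0.72 (SE 0.18, limma adjusted p = 0.0298) with WT lines below the floor, and Arhgap30, a GTPase-activating protein, by 0.69 (SE 0.19, limma adjusted p = 0.0419). The actin-binding proteins Lcp1 and Coro1a differed by 0.80 and 0.69 without passing (limma adjusted p = 0.0525 and 0.161), as did the adaptor Lcp2 with 0.42 (0.322). Cd48, a GPI-anchored SLAM-family ligand just below the floor, had 6.96, 5.97, 5.83 and 5.50 in Cry DKO lines 1 to 4, against 6.30, 5.87, 5.92 and 6.07 in WT lines 1 to 4. Cry DKO line 1 was the highest of all lines while the other Cry DKO lines lay within or below the WT range. Its difference of 0.03 (SE 0.26) did not pass without a floor (adjusted p = 0.973 by limma). Across the set, the 13 further probe sets of members that lay above the floor all had differences above 0, and the widest gap to the chosen probe set of the same gene was 0.44, for Laptm5.

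The members varied together between lines of 1 genotype as well. After the genotype means were removed, the median correlation over 703 pairs of members was 0.76 (8 lines), against 0.00 over all pairs of the 9511 genes above the floor. Of the member pairs, 99.4% were positive. The first principal component of these deviations held 73.3% of the variance of the members, against 29.5% over all genes above the floor. Within Cry DKO lines alone the median was 0.87 and within WT lines 0.70 (4 lines each). These points share the same 8 arrays. The median was 0.69 without Cry DKO line 3, 0.69 without Cry DKO line 1 and 0.81 without WT line 4. Each member was also set against the mean of the other members. The correlation was above 0.9 for 19 members, such as Aif1 (0.98), Adgre1 (0.97), Mpeg1 (0.96) and Csf1r (0.96). It was under 0.7 for 6: Clec4d (0.68), Gpnmb (0.64), Trem2 (0.61), Srgn (0.58), Ms4a7 (0.47) and Emr4 (0.28).

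**Figure D3:**
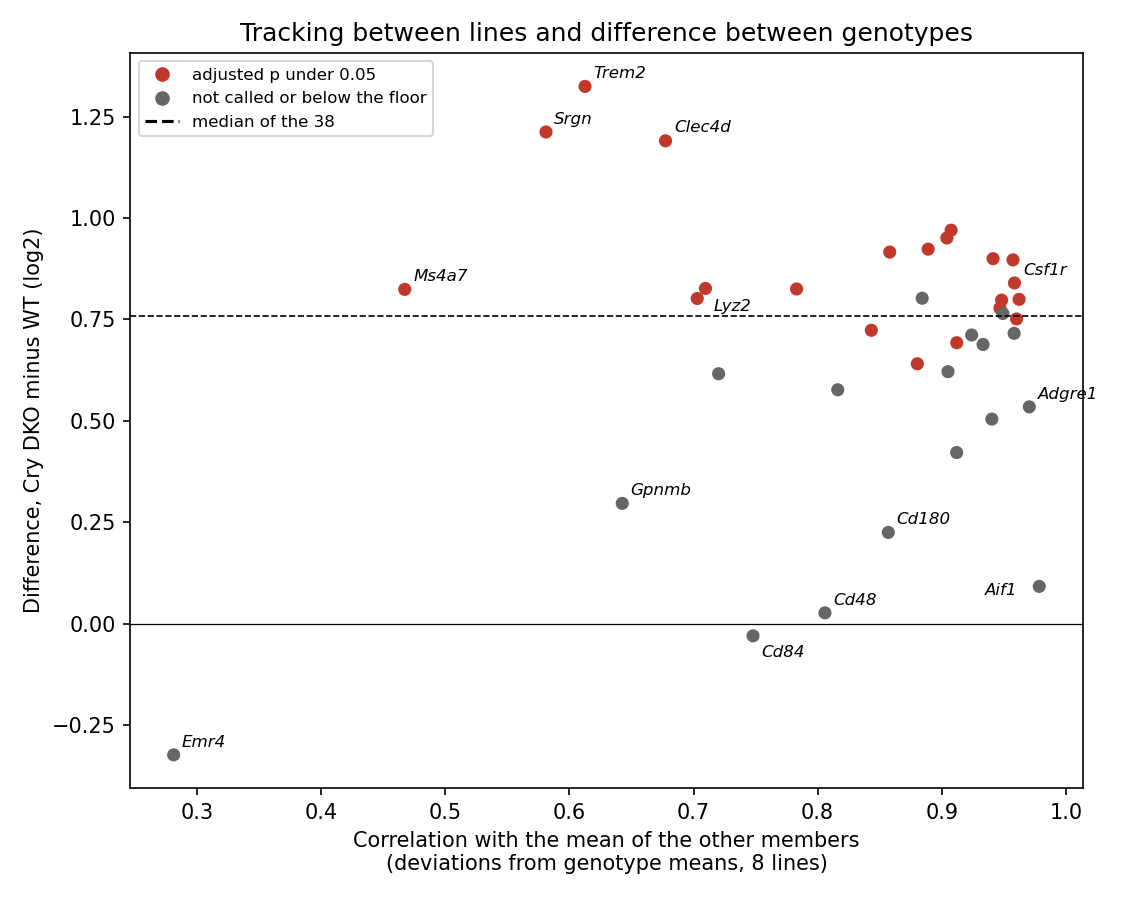
Difference between genotypes (y axis, log2, Cry DKO minus WT) against the correlation of each gene with the mean of the other members (x axis), from deviations within each genotype over 8 lines. Trem2, Srgn and Clec4d lie at the top with correlations of 0.58 to 0.68, and Aif1 lies at the far right with a difference of 0.09.

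Departures from the common difference were read as a difference more than 2 of its own standard errors away from the median of 0.76, or of the opposite sign. Members varied together between lines, so the standard error of a gene is not the error of its distance from that median. The limit is thus a rule for listing only. This rule gave 8 of 38 members, listed without a test. Srgn and Clec4d lay above the median, by 0.45 and 0.43. Aif1, Cd84, Cd48, Cd180 and Gpnmb lay below it, by 0.67, 0.79, 0.73, 0.53 and 0.46, Cd84 also having the opposite sign by a narrow margin. Emr4 had the opposite sign at a signal near the bottom of the table's range. Over 11 settings of this rule, Srgn, Aif1, Cd84 and Cd48 departed in 11, Emr4 in 10, Clec4d in 9, Cd180 in 7 and Gpnmb in 5. Trem2 had the largest difference, 1.32, with WT lines below the floor and a wide error, and departed in 1. Over the 38 members the difference tended to be larger at a higher mean signal (Pearson r = 0.58). Aif1 and Cd84 had means of 6.29 and 6.28, just above the floor of 6.06. Cd48, Cd180 and Emr4 lay below the floor, while Gpnmb was brighter at 7.89. Was and Trem2, also dim at 6.29 and 6.09, differed by 0.72 and 1.32. The part of signal level in the departures was not tested. On each side of the median, the departing members nearest to the limit were Clec4d at 2.44 and Gpnmb at -2.08 standard errors, and the nearest that kept within it and had the same sign were Trem2 at 1.73 and Lcp2 at -1.35.

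Aif1 followed the other members between lines (0.98) while its genotypes differed by 0.09. Its order within Cry DKO lines, 1, 2, 4 and 3 from high to low, was that of the mean over the set, and so was its order within WT lines, 1, 4, 3 and 2. Srgn, Lyz2, Ms4a7 and Clec4n were the 4 members with a higher signal in Cry DKO line 4 than in line 1, and Cd48, Spi1, Gpnmb and Mrc1 the 4 with a lower signal in line 4 than in line 3. Cd48 and Cd84 have 2 protein-coding genes between them on chromosome 1, and Arhgap30, which rose, lies 8 genes from Cd48 and 11 from Cd84. The 38 members with a probe set otherwise lie on 18 chromosomes, with at most 4 on any of them.

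**Figure D4:**
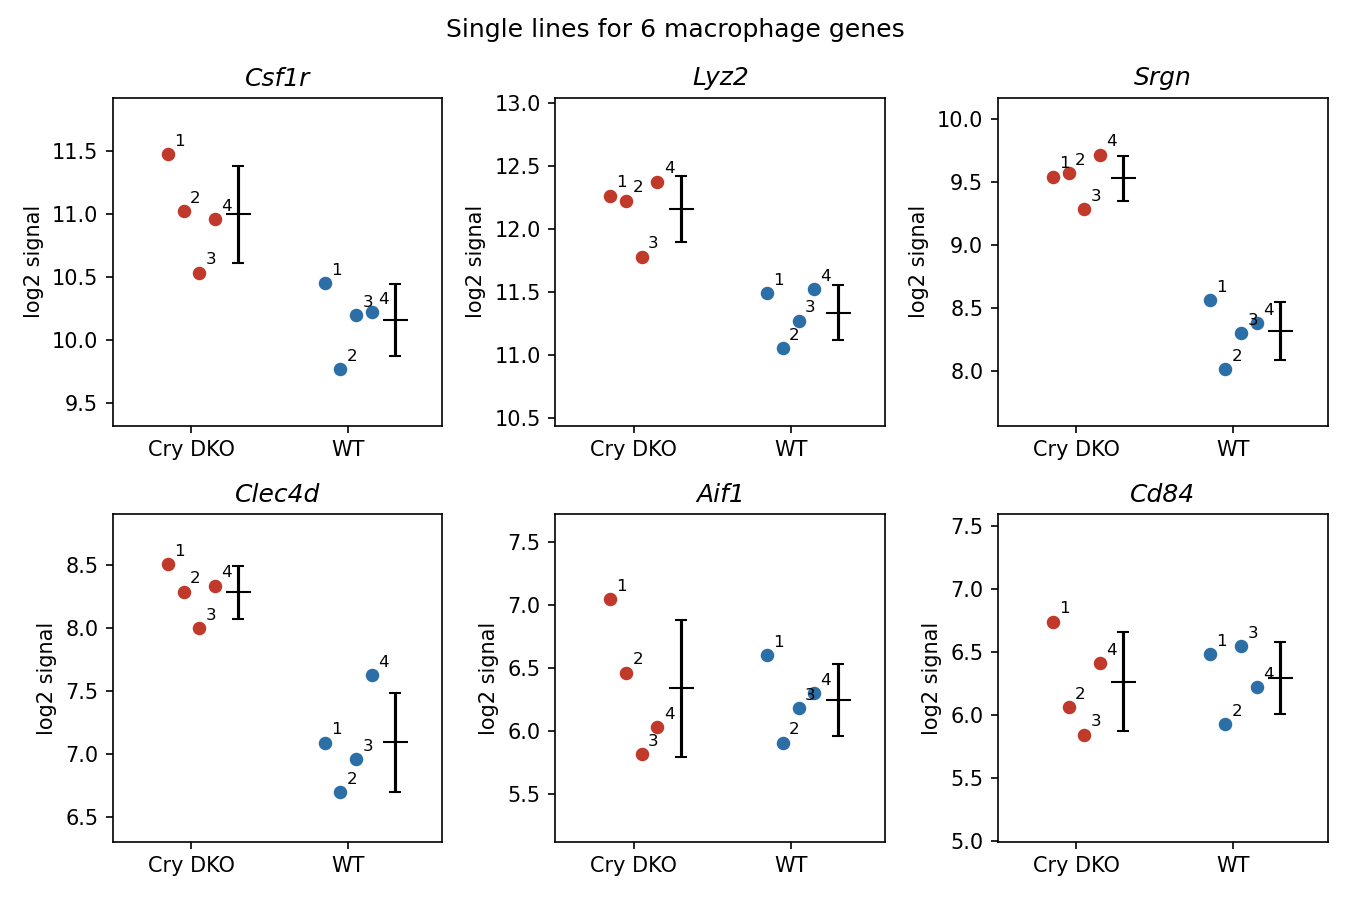
Log2 signal of 6 macrophage genes in single lines, with line numbers beside the points, for Cry DKO lines (red, left) and WT lines (blue, right); black marks are means ± SD, n = 4, and every panel spans the same log2 range. The groups lie apart in Csf1r, Lyz2, Srgn and Clec4d and overlap in Aif1 and Cd84.

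A list of 56 other macrophage genes, all outside the set, was read in the same fit. It too was chosen with earlier results of these data known. Of 38 above the floor, 12 rose, none fell and 36 had a difference above 0, with a median of 0.61 (4.95% of all genes rose). Dock2, among those that rose, passed the floor through its Cry DKO lines alone, since all of its WT lines lay below it. Hcls1 and Myo1f, which were not called, had WT means of 6.01 and 5.93, also below the floor. Fcgr2b, the inhibitory Fc receptor, had 9.69, 9.58, 9.02 and 9.43 in Cry DKO lines 1 to 4, against 6.13, 5.88, 5.74 and 7.80 in WT lines 1 to 4. The groups lay far apart, and Fcgr2b rose by 3.04 (SE 0.37, limma adjusted p = 0.00156). The phosphatase Inpp5d rose by 0.89 (SE 0.14, limma adjusted p = 0.00378), the complement receptor C5ar1 by 1.20 (SE 0.25, limma adjusted p = 0.0153) and Nckap1l, a part of the actin-regulating WAVE complex, by 0.76 (SE 0.16, limma adjusted p = 0.0162). The mean of these 38 genes was 8.58, 8.31, 7.81 and 7.96 in Cry DKO lines 1 to 4, against 7.74, 7.21, 7.49 and 7.70 in WT lines 1 to 4. Within each genotype that is the order of lines seen in the set itself, and the median correlation of these genes with the mean of the set was 0.87 within genotypes. Of the genes named above, Fcgr2b at 0.47, Inpp5d at 0.45, C5ar1 at 0.82 and Nckap1l at 0.55 lay below that median. So did Dock2 at 0.64 and Myo1f at 0.82, while Hcls1 lay above it at 0.96. Of the growth factors that feed CSF1R, Csf1 had 11.5 ± 0.11 in Cry DKO and 11.6 ± 0.13 in WT lines (SD, n = 4 each), a difference of -0.04 (SE 0.07, limma adjusted p = 0.793) that did not pass. Il34 lay below the floor, with 4.84 ± 0.10 in Cry DKO and 4.40 ± 0.38 in WT lines, and Csf2 was not analysed here.

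Markers of other blood cells and of vessels were mostly dim or have no probe set annotated to them alone in the deposited table. None of the markers with a probe set was above the floor for T and NK cells (1 of 11 listed genes had a probe set), B cells (2 of 7), neutrophils (1 of 11), erythroid cells (2 of 8) and endothelium (5 of 9). The mean log2 signal of the markers with a probe set ran, over lines, from 2.28 to 3.64 in Cry DKO and 1.57 to 4.11 in WT lines for T and NK cells, and from 3.98 to 4.44 in Cry DKO and 3.74 to 4.79 in WT lines for endothelium. The B cell list ran from 3.43 to 4.83 in Cry DKO and 4.35 to 4.92 in WT lines, and the neutrophil list from 3.88 to 4.77 in Cry DKO and 2.81 to 4.45 in WT lines. The erythroid list ran from 2.15 to 3.60 in Cry DKO and 1.78 to 3.36 in WT lines. Of dendritic cell markers Zbtb46 and of mast cell markers Gata2 alone were above the floor, with values of -0.15 and -0.11 (Cry DKO minus WT) that missed the threshold. Of 3 megakaryocyte markers above the floor none passed in limma, and 1, Ppbp, had an unadjusted p under 0.05. Ppbp and Pf4, platelet chemokines, had differences of 0.66 and 0.60, and Itga2b, an integrin chain of platelets, had -0.20 (limma adjusted p = 0.136, 0.218 and 0.36). Among osteoclast genes, the list of a macrophage descendant, Ctsk, a collagen-degrading protease that fibroblasts also express, fell by 0.58 (limma adjusted p = 0.013), and Mmp9 had a difference of -0.89 that did not pass (0.0828).

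Other programmes moved in the same lines. The 19 measured genes of DNA replication and mitosis all rose, against 4.95% of all genes, with a median of 0.51, examples being Top2a at 0.56 and Bub1 at 0.54. Their mean was 9.98, 10.04, 9.91 and 9.91 in Cry DKO lines 1 to 4, against 9.57, 9.42, 9.41 and 9.49 in WT lines 1 to 4. The lowest Cry DKO line lay well above the highest WT line. Of 13 fibroblast markers above the floor, 2 fell, against 4.23% of all genes, the protease gene Fap by 0.69 (limma adjusted p = 0.0262) and the transcription factor Twist2 by 0.35 (0.0409), none rose, and Twist1 and Pdgfrb differed by -0.25 and -0.17 without passing. Their mean was 11.8, 11.8, 11.6 and 11.6 in Cry DKO lines 1 to 4, against 11.9, 12.02, 11.8 and 11.9 in WT lines 1 to 4. The part of these programmes in the macrophage result was not tested.

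**Figure D5:**
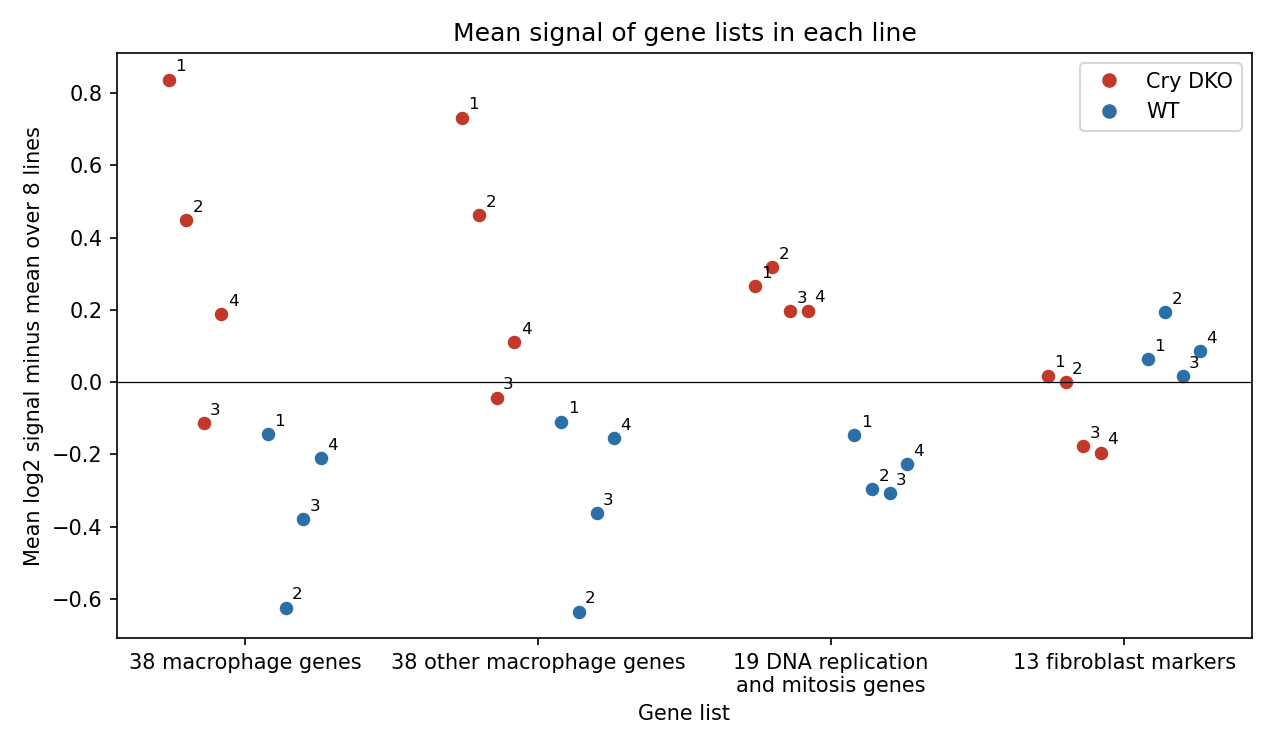
Mean log2 signal of 4 gene lists in each line minus the mean over the 8 lines, for Cry DKO lines (red) and WT lines (blue), with line numbers beside the points. Both macrophage lists run from Cry DKO line 1 down to WT line 2 with little gap between Cry DKO line 3 and WT line 1, while the replication and mitosis genes form 2 separate groups.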

How the data were processed

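RNA of 8 lines was hybridised to Affymetrix 3' arrays, 1 array per line. The table the authors deposited holds 30506 probe sets as log2 signals. Its log base follows from the values alone, which span 0.07 to 14.3. The submitters' processing notes name GCOS with no version; summarisation, normalisation and probe set choice were not stated in the sources used here. Values were used as deposited, since array medians nearly coincide, and 0 arrays were identical.

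Of the probe sets, 24838 are annotated to 1 gene, 658 to several and 4998 are unnamed here (61 are control probe sets). Symbols were updated through gene identifiers, 24757 of which were found in GRCm38.p6. Genes with a mean under the 40th percentile (6.06) were not tested in the main comparison. The test of Cry DKO against WT used limma (version 3.58.1, R 4.3.3) with trended empirical Bayes, no covariate and Benjamini-Hochberg adjustment over 9511 genes. With 4 arrays per genotype precision is limited, and a p-value here reflects variation from line to line. The scripts were tested on simulated data.

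The members and the lists were chosen with earlier results of these data known. Values are given in full for fixed markers, the 8 highest and 4 lowest differences and every departing member, and up to 4 genes of smallest p from each other list with a called gene. Genes named outside this rule were chosen after their values were seen. Replicate numbers were not used as pairs in the main test, and whether they mark pairs was not tested. Deviations of same-numbered lines correlated between -0.011 and 0.36. Alternatives were a replicate block, other floors, normalisations, probe set rules, empirical Bayes settings, array weights and each line left out.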

Additional observations from a re-analysis of the deposited data

Results flagged for a closer look

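Within groups of 4 lines, 2 of 76 groups of a macrophage gene held a line far from the others, where chance flags about 1 in 20 groups. Itgam stood at 7.51 in Cry DKO line 1, against 6.87 to 6.96 in the other Cry DKO lines. Emr4 stood at 1.31 in WT line 1, against 2.90 to 3.13 in the other WT lines, at a signal far below the floor.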

How the results depend on the processing

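The count of 21 members called higher was 25 with a replicate block, 21 without a floor and 14 of 21 with a floor at the 60th percentile. It was 21 with quantile normalisation, aligned medians or each probe set tested, 19 with array weights, 18 with robust empirical Bayes and 14 without an intensity trend. With probe sets averaged it was 19 of 31 tested. The calls of Laptm5 and Msr1 then ended, Lcp1 and Ncf1 were gained, and Cd53 and Ms4a7 were among the members not tested. No member was called lower in any of these. With each line left out in turn it ranged from 9 to 26. The median difference of the members tested, 0.78, ranged from 0.59 to 0.91 without 1 line and from 0.73 to 0.80 in the other settings. The median pair correlation of 0.76 ranged from 0.69 to 0.81 without 1 line, and the count of 8 departing members from 6 to 8. The difference of Aif1 ranged from -0.14 to 0.27 without 1 line and changed sign to -0.14 without Cry DKO line 1 and to -0.02 without WT line 2. That of Cd84 ranged from -0.19 to 0.11 and changed sign to 0.04 without Cry DKO line 2, 0.11 without Cry DKO line 3, 0.03 without WT line 1 and 0.05 without WT line 3. The causes were not tested. With the replicate block 4 further members were called (Ptprc, Lcp1, Pld4 and Ncf1) and 0 calls ended. Same-numbered lines correlated at 0.36, 0.12, 0.23 and -0.01. Lines 1, 2 and 3 of each genotype correlated best with the line of the same number, and line 4 did not. The highest value between lines of unlike number was 0.118. Whether the numbers mark pairs or batches was not tested. Over all genes the count of calls was 873, 1051 with the block and 382 to 686 without 1 line. Dim probe sets are less precise, which limits the members below the floor.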
